A study of Homo sapiens with 11 samples.

Results

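The 4 ID genes and 6 genes of bone morphogenetic protein (BMP) signalling, namely the ligand BMP4, the receptors BMPR1A and BMPR2, and SMAD1, SMAD6 and SMAD9, were taken by their Entrez identifiers from the 28395 genes counted by RNA-Seq in PC3 and DU145 cells, and all 10 had a row. The members were chosen to see whether ID2 moved with the BMP pathway when ST6GAL1, a sialyltransferase that adds sialic acid to N-glycans, was overexpressed. PC3 and DU145 are established human prostate cancer lines. Each line had been transduced with lentiviral particles, either carrying the ST6GAL1 open reading frame or a negative control, so that all groups had received a lentivirus, and stable populations were compared. The labels call the libraries biological replicates. In PC3 there were 3 for the control virus and 3 for ST6GAL1, and in DU145 3 for the control virus and 2 for ST6GAL1, numbered 2 and 3. The promoter driving the reading frame and the number of cells behind each stable population are not given in the sources used here. Whether the libraries of a group came from separate transductions is not stated either. If they came from a single stable population, p values and intervals cover only the spread between its libraries. An effect of ST6GAL1 and a difference between selected populations could then not be told apart.

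ID proteins (inhibitors of DNA binding) carry a helix-loop-helix domain without a DNA-binding region. They pair with E proteins such as TCF3, TCF4 and TCF12 and keep them off their target genes. BMP ligands bind type I and type II receptor kinases, which phosphorylate SMAD1, SMAD5 and SMAD9. These enter the nucleus with SMAD4 and switch on direct target genes, among which are ID1, ID2 and ID3, while SMAD6 and SMAD7 feed back to restrain the pathway. In prostate cancer, BMP signals are best known for the exchange between tumour cells and bone.

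The 3 ID promoters whose genes were read in these cells are shown with that of SMAD6, since SMAD complexes act on such genes through sites in their control regions, some of which lie farther out than these windows reach. Each RefSeq window (GRCh38.p14) runs 5′ to 3′ on the strand of its gene from 250 bases before to 50 after the start. Capitals mark GTCTAGAC, the palindromic SMAD box, GGCGCC, a GC-rich SMAD site, CCAAT and TATAA, searched on both strands. The windows lie at chr20:31605039-31605338 (ID1, plus strand), chr2:8681806-8682105 (ID2, plus strand), chr1:23559452-23559751 (ID3, minus strand) and chr15:66701986-66702285 (SMAD6, plus strand).
ID1: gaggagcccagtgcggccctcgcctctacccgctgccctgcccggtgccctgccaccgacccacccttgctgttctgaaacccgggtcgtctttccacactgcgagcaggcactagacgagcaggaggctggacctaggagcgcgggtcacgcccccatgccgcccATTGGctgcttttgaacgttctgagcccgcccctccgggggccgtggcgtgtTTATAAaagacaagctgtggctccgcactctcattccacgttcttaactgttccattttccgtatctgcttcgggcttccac
ID2: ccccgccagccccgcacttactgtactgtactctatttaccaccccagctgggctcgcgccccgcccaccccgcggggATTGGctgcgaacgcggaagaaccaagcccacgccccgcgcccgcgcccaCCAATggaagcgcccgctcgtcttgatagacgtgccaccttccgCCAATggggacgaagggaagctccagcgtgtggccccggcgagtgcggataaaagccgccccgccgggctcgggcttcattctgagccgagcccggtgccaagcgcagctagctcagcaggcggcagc
ID3: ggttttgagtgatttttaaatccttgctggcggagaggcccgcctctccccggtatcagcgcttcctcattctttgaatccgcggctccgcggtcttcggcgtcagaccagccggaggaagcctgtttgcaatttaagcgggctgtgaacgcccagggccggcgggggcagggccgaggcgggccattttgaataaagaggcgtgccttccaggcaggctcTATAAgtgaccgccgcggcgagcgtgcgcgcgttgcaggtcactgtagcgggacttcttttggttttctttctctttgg
SMAD6: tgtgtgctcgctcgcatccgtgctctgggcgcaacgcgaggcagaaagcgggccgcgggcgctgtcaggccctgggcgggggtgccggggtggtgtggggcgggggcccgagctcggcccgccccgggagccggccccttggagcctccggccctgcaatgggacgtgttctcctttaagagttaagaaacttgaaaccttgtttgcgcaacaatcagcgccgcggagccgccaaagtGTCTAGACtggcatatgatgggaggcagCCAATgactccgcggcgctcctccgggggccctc

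The windows of ID1 and ID3 held TATAA at -31 and -29 from the start, and in ID1 it overlapped its own reverse complement. The ID2 window held no TATAA but 3 CCAAT boxes, at -172 on the opposite strand and at -122 and -78. ID1 held 1 CCAAT box, on the opposite strand at -84, and ID3 none. Of 35116 windows of this length, 34.6% held CCAAT and 20.4% TATAA. The SMAD box occurred among the members only in SMAD6, from -12 to -5, and in 0.2% of all windows. GGCGCC, held by 19.2% of all windows, was in none of the ID windows, once in that of BMPR2, and in windows of BMP4 and SMAD1, which have 3 and 5 annotated starts. These matches describe letters only.

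Total counts per library lay between 13194485 and 18201359, so that 3 counts, taken as the floor, correspond to 0.165 to 0.227 CPM (counts per 1e6 counts), and this floor covers counting error only. ST6GAL1 rose 12-fold in PC3 and 25-fold in DU145, with no overlap between control and overexpression libraries. KRT8, KRT18, EPCAM and CDH1, epithelial genes, summed to 497 to 532 CPM in PC3 and 884 to 1090 in DU145, where the overexpression libraries (884 to 954) lay under the controls (1050 to 1090). KRT8 and KRT18 made up most of the sum. In DU145 these 2 and EPCAM were lower with overexpression, whereas CDH1 was higher, at a mean of 121 CPM against 101 in controls. Sums over 4 leukocyte markers stayed at or under 2.73 CPM. The 5 fibroblast markers summed to 28.7 to 35.9 CPM in PC3 and to at most 7.24 in DU145, and 4 endothelial markers to 12.2 to 14.8 and at most 2.00. In PC3 the fibroblast sum was nearly all COL1A1 and COL3A1. With overexpression their PC3 means moved in opposite directions, from 25.6 to 18.4 CPM and from 3.85 to 15.1 CPM. COL1A2, DCN and LUM did not exceed 3 counts in any library. The endothelial sum in PC3 was nearly all PECAM1 and KDR. In bulk samples fewer cells of a kind and less RNA per cell cannot be told apart.

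ID2 rose in DU145 cells with ST6GAL1 overexpression, and BMP4 fell there on low counts. ID3 also rose there, at the edge of the threshold given below. In PC3 cells BMP4, again on low counts, and SMAD9, a receptor-activated SMAD, rose. ID1, ID2 and ID3 differed there by 0.31 or less on the log2 scale, and the small rise of ID2 was without overlap. Neither change of BMP4 held in all alternative fits. The receptors BMPR1A and BMPR2 and the transducer SMAD1 stayed within a log2 fold change of 0.16 in either line. Genes were tested with edgeR's quasi-likelihood test in each line apart, with adjustment over all tested genes, and called at an adjusted p under 0.05 with an absolute log2 fold change over 0.58. Of the 10 members 9 had enough counts to be tested, and all p values below are from this test unless another is named. In PC3 2 of 9 were called, both higher, where 5.38% of all 13544 tested genes were called and 3.61% called higher. In DU145 3 of 9 were called, 2 higher and 1 lower, where 8.94% of 13676 genes were called, 4.33% higher and 4.61% lower. On adjusted p alone the counts were 7 of 9 in PC3, where 37.3% of all genes passed, and 4 of 9 in DU145, where 20.1% did. The median log2 fold change of the tested members was 0.15 in PC3 and 0.24 in DU145, against -0.002 over all genes in each line.

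**Figure D1:**
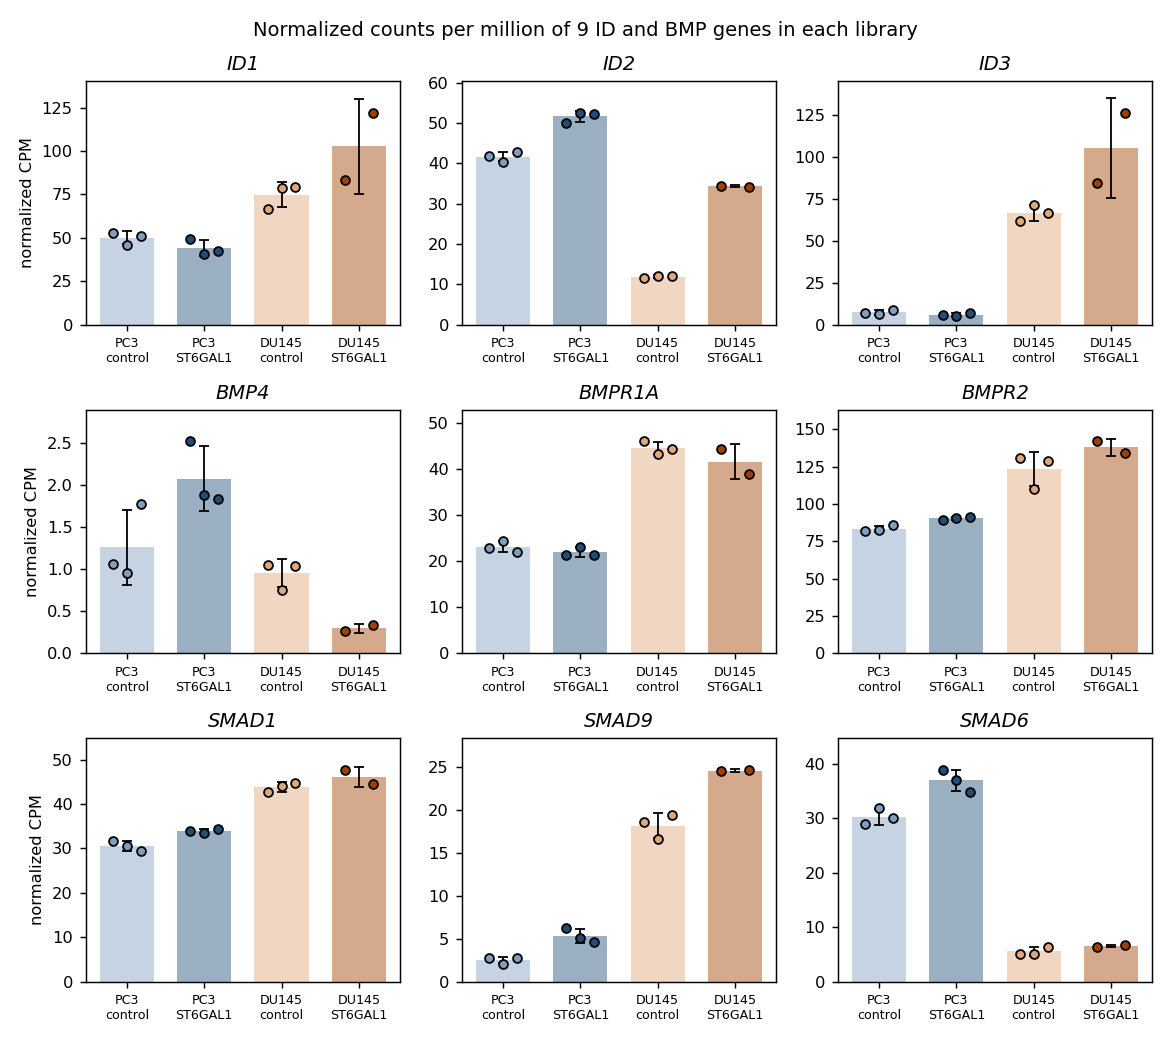
Normalized CPM (vertical axes, each from 0) of the 9 tested members in every library, as points, with bars at group means and error bars of 1 SD (n = 3, or n = 2 for DU145 ST6GAL1). ID2 stands at 34.1 and 34.5 in the DU145 ST6GAL1 libraries against 11.5 to 12.1 in the controls, whereas the 2 DU145 ST6GAL1 points of ID1 and ID3 lie far apart.

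Of the ID family, ID2, on chromosome 2 from 8682056 to 8684461, showed the clearest difference. In DU145 its normalized CPM were 11.5, 12.1 and 12.1 in controls and 34.5 and 34.1 with overexpression, on raw counts of 174, 192 and 162 and of 533 and 612. The groups lay far apart and each was tight, with an SD of 0.372 around a control mean of 11.9 (n = 3) and of 0.280 around 34.3 (n = 2). This is a 2.88-fold difference, a log2 fold change of 1.53 (95% interval 1.30 to 1.76, adjusted p = 3.76e-07). In PC3 the CPM of ID2 were 41.7, 40.4 and 42.7 in controls and 50.1, 52.5 and 52.2 with overexpression. These groups did not overlap either, but the difference was 1.24-fold (log2 0.31, interval 0.21 to 0.41, adjusted p = 1.58e-06), under the fold change threshold.

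ID1, on chromosome 20 from 31605289 to 31606510, was read at 66.7, 78.9 and 79.2 CPM in DU145 controls and at 83.4 and 122 with overexpression. All overexpression values lay above all controls, but the 2 libraries were farther from each other than the lower of them was from the controls. The log2 fold change was 0.46 (interval 0.03 to 0.88, adjusted p = 0.128) and was not called. In PC3 the groups overlapped, at 53.0, 46.1 and 51.3 CPM in controls and 49.4, 41.0 and 42.5 with overexpression (log2 -0.19, interval -0.31 to -0.07, adjusted p = 0.0131, under the fold threshold).

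ID3, on chromosome 1 from 23557926 to 23559501, was also spread in DU145, at 61.7, 71.4 and 66.5 CPM in controls and 84.1 and 126 with overexpression. Its log2 fold change of 0.66 (interval 0.23 to 1.10) was called at the very edge of the threshold, with an adjusted p of 0.0499. The call was lost with RLE factors (adjusted p = 0.0526), without a filter (0.169), with a minimum of 10 counts (0.0508) and when any 1 of the control libraries was left out (0.114 to 0.175), and without overexpression replicate 3 the log2 fold change was 0.34. In PC3, where ID3 is low, the counts were 120, 102 and 134 in controls and 85, 99 and 109 with overexpression, groups that overlapped once normalized (log2 -0.27, adjusted p = 0.0995).

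The 2 DU145 overexpression libraries differed from each other along GC content, and ID1 and ID3 are rich in GC. CPM in replicate 3 were 1.46 times those in replicate 2 for ID1 and 1.5 times for ID3, but 0.989 times for ID2. Transcript GC was 57.9% for ID1, 56.7% for ID3 and 42.5% for ID2. Over 2806 genes with a GC content of 55% or more and at least 5 CPM in both libraries the median ratio was 1.26 (5th to 95th percentile 1.00 to 1.81). Over 4287 genes under 45% it was 0.920 (0.817 to 1.05). These band ratios were taken on CPM of total counts without TMM factors, whereas the ratios of the ID genes are of normalized CPM. Without replicate 2 the log2 fold change of ID1 was 0.69 and was called (adjusted p = 2.64e-05), and without replicate 3 it was 0.16 (adjusted p = 0.223), the remaining library in each case being assumed to vary like the other groups. With a trend on gene length and GC removed, the values were 0.64 for ID1 (adjusted p = 0.0562), 0.81 for ID3 (adjusted p = 0.0284) and 1.45 for ID2 (adjusted p = 6.19e-07). The part of this library difference in the values of ID1 and ID3 was otherwise not tested. Of the pathway genes called in DU145 below, ENG, CHRD, UNC5B, ATOH8, CDKN1A and SMAD7 also had a transcript GC over 55%. The part of the library difference in their values was not tested. GC bands were chosen after the values had been seen.

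ID4, on chromosome 6 from 19837370 to 19842197, was at or near the floor everywhere. Its counts were 2, 0 and 1 in PC3 controls, 1, 4 and 0 in PC3 overexpression libraries, and 0 in all 5 DU145 libraries, so no difference was detectable at this depth.

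BMP4, the ligand, on chromosome 14 from 53949736 to 53956891, was scarce in both lines and moved in opposite directions. DU145 counts were 16, 12 and 14 in controls and 4 and 6 with overexpression, and the normalized values, at 0.758 to 1.05 and 0.259 to 0.334 CPM, did not overlap. The log2 fold change was -1.64 (interval -2.64 to -0.63, adjusted p = 0.0242). In PC3 the counts were 19, 15 and 27 in controls and 37, 34 and 29 with overexpression, or 0.951 to 1.77 and 1.83 to 2.52 CPM. The groups only just failed to overlap (log2 0.72, interval 0.21 to 1.23, adjusted p = 0.0224). Neither call was firm. DESeq2 gave an adjusted p of 0.13 in DU145 and 0.112 in PC3. The DU145 call was lost when any 1 of the 3 controls or overexpression replicate 2 was left out (adjusted p of 0.051 to 0.0983), and that in PC3 without control replicate 1 or 2 or overexpression replicate 1 (0.0981 to 0.132).

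BMPR1A, a type I BMP receptor on chromosome 10 from 86755763 to 86932844, was read at 43.4 to 46.1 CPM in DU145 controls and at 44.4 and 39.0 with overexpression, and in PC3 at 22.1 to 24.5 and 21.3 to 23.2. The groups overlapped in each line, and the log2 fold changes were -0.10 (interval -0.30 to 0.10, adjusted p = 0.489) and -0.08 (interval -0.22 to 0.06, adjusted p = 0.407). Neither interval reached farther than 0.30 from 0.

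BMPR2, the type II receptor, on chromosome 2 from 202376327 to 202567749, stood at 110 to 131 CPM in DU145 controls and at 142 and 134 with overexpression, values that did not overlap though their difference missed the threshold (log2 0.16, interval -0.02 to 0.35, adjusted p = 0.219). In PC3 it was 81.8 to 85.8 CPM in controls and 89.3 to 91.0 with overexpression, a small difference that passed on p alone (log2 0.12, interval 0.04 to 0.19, adjusted p = 0.0123).

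SMAD1, which the receptors phosphorylate, on chromosome 4 from 145480770 to 145559176, was 29.4 to 31.7 CPM in PC3 controls and 33.4 to 34.3 with overexpression (log2 0.15, interval 0.03 to 0.26, adjusted p = 0.0376). Its DU145 groups, at 42.7 to 44.8 and 44.4 to 47.7 CPM, overlapped (log2 0.07, interval -0.12 to 0.26, adjusted p = 0.621).

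SMAD9, on chromosome 13 from 36844831 to 36920854, is activated by the same receptors and is itself a BMP target. In PC3 its counts were 49, 33 and 42 in controls and 92, 93 and 74 with overexpression, which gave 2.74, 2.09 and 2.75 against 6.28, 5.14 and 4.68 CPM. The groups were well apart, with a 2.11-fold difference (log2 1.07, interval 0.74 to 1.41, adjusted p = 1.69e-06). DU145 cells, which start higher, had 18.6, 16.6 and 19.4 CPM in controls and 24.5 and 24.7 with overexpression. There the difference was 1.35-fold (log2 0.44, interval 0.20 to 0.68, adjusted p = 0.0135) and under the fold threshold.

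SMAD6, an inhibitory SMAD on chromosome 15 from 66702236 to 66782849, had 28.9, 31.8 and 30.0 CPM in PC3 controls and 38.9, 37.0 and 34.9 with overexpression (log2 0.29, interval 0.17 to 0.41, adjusted p = 9.83e-05), without overlap but under the fold threshold. In DU145 its values were 5.07, 5.18 and 6.42 in controls and 6.40 and 6.68 with overexpression, which overlapped (log2 0.24, interval -0.11 to 0.60, adjusted p = 0.341).

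**Figure D2:**
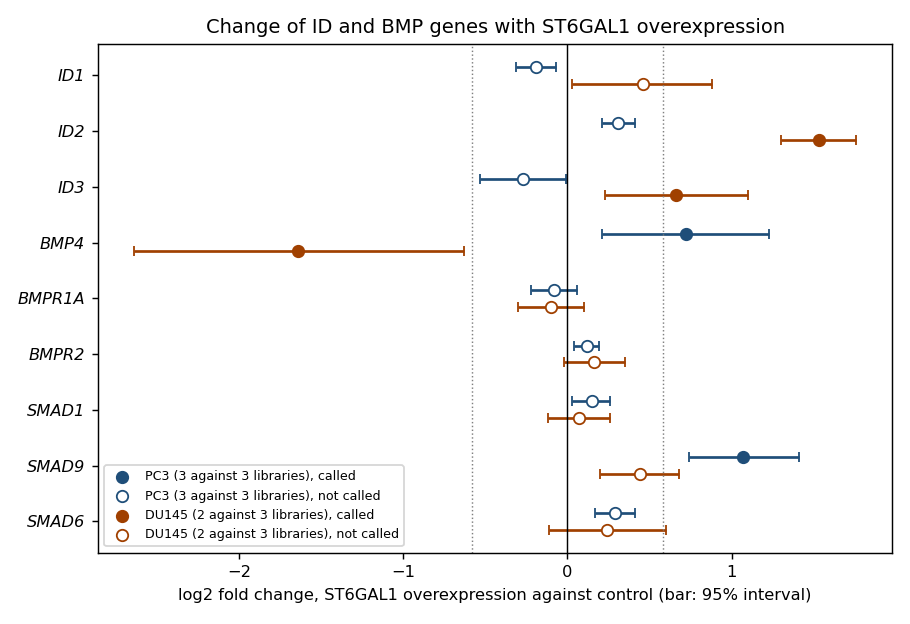
Log2 fold change (horizontal axis) of the 9 tested members with ST6GAL1 overexpression in PC3 (blue, 3 against 3 libraries) and DU145 (brown, 2 against 3), with bars for 95% intervals, filled points for called genes and dotted lines at the fold threshold of 0.58. ID2 in DU145 (1.53), SMAD9 in PC3 (1.07) and BMP4 in DU145 (-1.64) lie beyond a dotted line with their whole interval, and BMP4 in PC3 (0.72) does not.

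An interaction term of line and overexpression, fitted over all 11 libraries, asked whether the members changed differently in DU145 and PC3. It uses the same libraries as above, and the lines share a common spread in it. The common coefficient of variation between replicates was 0.0543 there, against 0.0226 in PC3 and 0.0817 in DU145 fitted apart. For ID2 the standard error was 0.0957, under the 0.106 of its DU145 change alone. Intervals and p values of the interaction may thus be too narrow and too small where DU145 sets the difference. At an adjusted p under 0.05, 3 of 9 members differed, where 19.7% of 14952 tested genes did. The change of ID2 was greater in DU145 by 1.21 on the log2 scale (interval 1.01 to 1.41, adjusted p = 3.32e-08), and by 1.18 to 1.23 when any library was left out. That of BMP4 was lower in DU145, with a difference of -2.36 (interval -3.47 to -1.25, adjusted p = 0.00338). The change of SMAD9 was smaller in DU145, with a difference of -0.64 (interval -1.04 to -0.24, adjusted p = 0.0218), a difference that lost its call without PC3 control replicate 2 (adjusted p = 0.0816) or PC3 overexpression replicate 1 (0.0723).

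ID1 and ID3 pointed the way ID2 did, at 0.64 (interval 0.14 to 1.13, adjusted p = 0.0726) and 0.93 (interval 0.25 to 1.60, adjusted p = 0.0582), and did not pass. DESeq2 (0.00523 and 0.000582) and limma-voom (0.0252 and 0.0482) gave adjusted p under the threshold for ID1 and ID3, and so did the fit without DU145 overexpression replicate 2 (3.39e-05 and 3.26e-07), with differences of 0.88 and 1.18. Without replicate 3 the differences were 0.32 (adjusted p = 0.0671) and 0.59 (adjusted p = 0.00356). In both fits the remaining overexpression library was assumed to vary like the other groups. For BMPR1A, BMPR2, SMAD1 and SMAD6 the differences between the lines lay from -0.08 to 0.04, with intervals within -0.37 and 0.28.

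In the contrast of DU145 with PC3 controls 6 of 9 members were called, a share close to the 64.9% of all 14952 genes. Line and deposit cannot be told apart there, and whether the lines were sequenced together is not given in the sources used here. DU145 controls held more ID3 (9.18-fold), SMAD9 (7.18-fold), BMPR1A (1.94-fold) and ID1 (1.5-fold), the last at a log2 value of 0.59 that stood only just over the threshold. ID1 fell under it without DU145 control replicate 2 or 3, PC3 control replicate 2 or PC3 overexpression replicate 1, with log2 values of 0.53 to 0.58. They held less SMAD6 (log2 -2.44) and less ID2 (log2 -1.80, adjusted p = 3.91e-15), and in BMP4 no difference passed (log2 -0.39, adjusted p = 0.237). ID2 and SMAD6 were thus higher in the line in which ID3 and SMAD9 were lower.

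Levels of different genes can be set side by side per length, as reads per kilobase of the canonical transcript and per 1e6 counts (RPKM). In PC3 controls the order was ID1 (50.9 RPKM), ID2 (32.0), SMAD1 (10.2), SMAD6 (7.89), ID3 (7.69), BMPR2 (6.90), BMPR1A (3.60), BMP4 (0.651) and SMAD9 (0.454), where SMAD6, ID3 and BMPR2 overlapped in turn, as did BMP4 and SMAD9. In DU145 controls ID1 (76.5 RPKM) and ID3 (70.3) overlapped at the top, followed by SMAD1 (14.7), BMPR2 (10.3) and ID2 (9.19), these last overlapping, and then BMPR1A (6.99), SMAD9 (3.28), SMAD6 (1.46) and BMP4 (0.495). With overexpression ID2 stood at 26.4 RPKM in DU145, above SMAD1 (15.3) and without overlap, but still below ID3 (111) and ID1 (104). That level also lay under the PC3 controls, at 31.0 to 32.8 RPKM, though this difference was not tested. In PC3 with overexpression ID1 (45) and ID2 (39.6) kept their places without overlap, and SMAD9 (0.963) overlapped BMP4 (1.07).

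**Figure D3:**
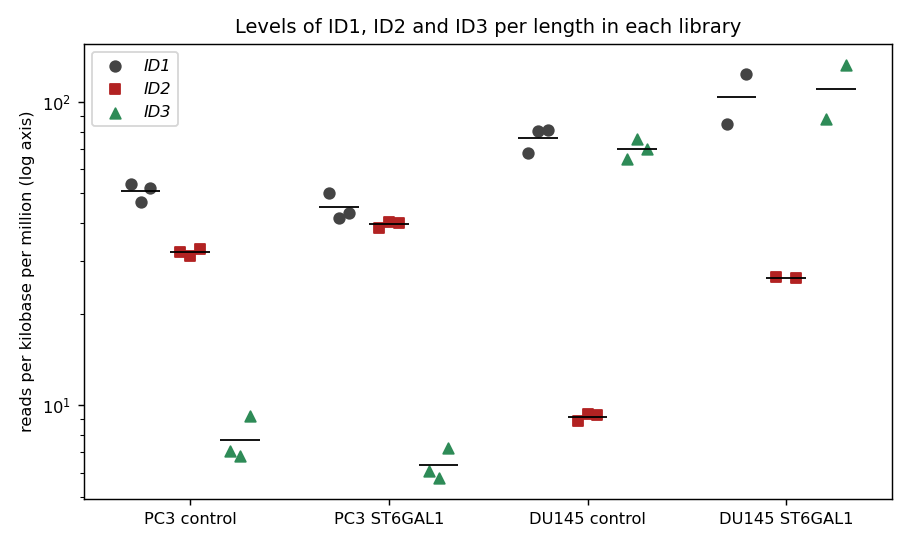
RPKM (vertical log axis) of ID1, ID2 and ID3 in each of the 11 libraries, with short lines at group means. In DU145 controls ID2, at 8.85 to 9.38, lies well under ID1 and ID3, and with ST6GAL1 overexpression it stands at 26.3 and 26.5.

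The rest of the pathway was read through lists by role, 83 genes with the members and 73 without. In PC3 46 of the 73 were tested, and 2 were called, both higher, where 5.38% of all tested genes were called. In DU145 43 were tested and 8 were called, 6 higher and 2 lower, where 8.94% of all tested genes were called. On adjusted p alone 11 were higher and 8 lower in PC3, against 37.3% of all genes in either direction, and 9 higher and 2 lower in DU145, against 20.1%. The medians of these genes, 0.04 in PC3 and 0.03 in DU145, lay close to the -0.002 of all genes.

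Of 13 BMP ligands 5 were tested in each line, and BMP3 was called beside BMP4. BMP3, a ligand known to act against other BMPs, had counts of 4, 1 and 3 in PC3 controls and 16, 28 and 23 with overexpression (log2 3.02, adjusted p = 2.53e-07), and 0 in every DU145 library. The controls lie near the floor, so the fitted size is uncertain. The other 8 ligands in each line were too scarce for the test.

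Among receptors and co-receptors 10 of 13 were tested in each line. ENG, endoglin, a co-receptor best known from endothelium, was called in DU145, where counts of 6, 3 and 5 in controls stood against 20 and 52 with overexpression (log2 2.73, adjusted p = 0.00126). The 2 overexpression libraries were far apart, and both lay above all controls. The summed level of 4 endothelial markers was also higher there, from 0.568 to 0.671 CPM in controls to 0.970 to 2.00 with overexpression. Most of this rise was PECAM1, with counts of 3, 7 and 6 in controls and 12 and 26 with overexpression. VWF, CDH5 and KDR had 7 counts or fewer in each DU145 library. Transcript GC of ENG was 62.7%, and these 2 libraries differed along GC content. The parts of the endothelial sum and of the GC difference in the value of ENG were not tested. RGMB, a BMP co-receptor, had the smallest adjusted p of the list, in PC3, at 67.1 to 70.7 CPM in controls and 50.7 to 57.6 with overexpression (log2 -0.36, adjusted p = 2.4e-08), which is under the fold threshold.

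Extracellular and membrane antagonists gave 7 tested genes of 16 in PC3, none called, and 6 in DU145, 1 called. This was CHRD, chordin, which binds BMPs and keeps them from their receptors, and which fell in DU145 from counts of 22, 30 and 40 to 10 and 11 (log2 -1.72, adjusted p = 0.00604). FST, follistatin, was abundant in PC3, at 724 to 750 CPM in controls and 813 to 848 with overexpression (log2 0.17, adjusted p = 2.19e-07, under the fold threshold), and nearly unread in DU145, with counts of 6, 4 and 2 in controls and 0 in both overexpression libraries.

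All 6 SMADs were tested in each line. SMAD7, the other inhibitory SMAD and a direct target of both BMP and TGF-beta signals, rose in DU145 from 5.99, 7.26 and 6.56 CPM to 10.3 and 11, without overlap (log2 0.69, adjusted p = 0.00415). In PC3 its groups, at 0.952 to 1.97 and 1.71 to 2.32 CPM, overlapped (log2 0.37, adjusted p = 0.256). The interaction did not pass for SMAD7 (0.31, adjusted p = 0.5), so a difference between the lines was not shown. Over the 6 SMADs the median log2 value was 0.22 in PC3 and 0.23 in DU145.

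Of 9 intracellular regulators of SMADs 8 were tested, with none called in PC3 and SKIL in DU145. SKIL, which holds SMAD complexes in check, stood at 34.8 to 38.1 CPM in DU145 controls and at 71.2 and 65.2 with overexpression (log2 0.91, adjusted p = 7.15e-06). Its relative SKI had the smallest adjusted p of the others, at 191 to 201 CPM in PC3 controls and 220 to 232 with overexpression (log2 0.19, adjusted p = 2.15e-06), under the fold threshold.

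Other direct BMP targets split by direction in DU145, where 7 of 14 were tested. ATOH8, a basic helix-loop-helix transcription factor, rose from counts of 44, 52 and 33 to 127 and 180 (log2 1.66, adjusted p = 2.03e-05). GATA3, a transcription factor, rose from counts of 4, 3 and 4 to 13 and 16 (log2 1.77, adjusted p = 0.0185). UNC5B, a netrin receptor, fell from counts of 32, 33 and 35 to 10 and 12 (log2 -1.77, adjusted p = 0.0012). In PC3 8 were tested and none was called, with log2 fold changes from -0.56 to 0.42.

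Of the partners of ID proteins, TCF3, TCF12, TCF4 and RB1, none was called in either line. TCF4 had the smallest adjusted p, in PC3, at 24.8 to 25.8 CPM in controls and 30.5 to 34.4 with overexpression (log2 0.34, adjusted p = 2.21e-05), and 0 counts in DU145 controls. Of 4 target genes of E proteins, 1 was called in each line. E proteins are known to switch on the kinase inhibitor genes among them and to repress CDH1. CDKN1A, the cyclin-dependent kinase inhibitor p21, rose in DU145 from 40.9, 43.0 and 45.9 CPM to 72.3 and 79.3 (log2 0.81, adjusted p = 2.05e-05), and in PC3 it was lower, at 13.2 to 15 CPM against 17.8 to 18.5 (log2 -0.34, adjusted p = 0.00061, under the fold threshold). CDH1, E-cadherin, rose in PC3 from 8.85, 9.01 and 9.68 CPM to 24.4, 23.9 and 23.0 (log2 1.37, adjusted p = 7.85e-18), and its DU145 difference was 0.26 (adjusted p = 0.0258).

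**Figure D4:**
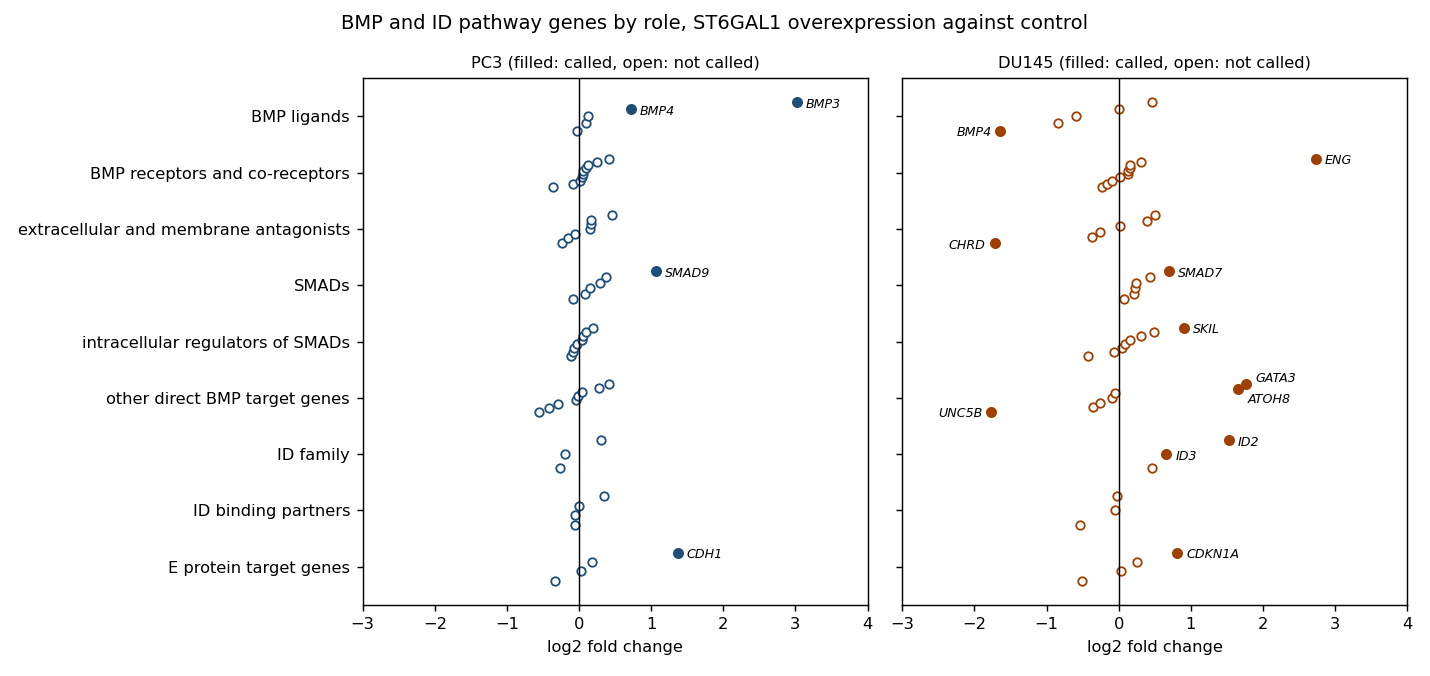
Log2 fold change (horizontal axes) of every tested gene of the 9 role lists (rows) in PC3 (left) and DU145 (right), filled and named where called. In PC3 BMP3, BMP4, SMAD9 and CDH1 are filled, all to the right of 0, and in DU145 11 genes are, 8 to the right and 3 to the left.

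The genes whose course over the libraries was most like that of ID2 were sought among 9933 genes with a mean of at least 5 CPM in each line, by the root mean square difference of log2 CPM from ID2 over the 11 libraries, each line centred on its own mean. This likeness is a description, since the libraries of a line share their groups. SLAIN1, a microtubule plus-end protein, was nearest (0.0525), with log2 fold changes of 0.25 in PC3 and 1.57 in DU145, against 0.31 and 1.53 for ID2. It was followed by ADAMTS15, a secreted metalloprotease (0.0868, with 0.16 and 1.41), ZNF711, a zinc finger protein (0.102, with 0.23 and 1.62), NUPR1, a stress-induced nuclear protein (0.108, with 0.35 and 1.56), and LTBP1, which binds latent TGF-beta (0.109, with 0.11 and 1.31). BMP4, SMAD9, SMAD7, ATOH8, GATA3 and ENG were among the genes too low in a line to be compared. Of the other members and pathway genes, SKIL ranked 82nd (0.257), CDKN1A 241st (0.333), NEDD4L 385th (0.362), ID3 606th (0.389), FSTL1 719th (0.398), PPM1A 735th (0.400) and ACVR2B 1031st (0.420). The other members followed, with ID1 1072nd (0.421), SMAD6 1209th (0.428), BMPR2 1826th (0.450), SMAD1 2793rd (0.475) and BMPR1A 6683rd (0.550) of the 9933.

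Genes beside the called members along the chromosomes were read beside them. Of the 5 tested genes on each side of ID2 in DU145, 1 was called, where 8.94% of all tested genes were, and their median log2 fold change was 0.04. The adjoining protein-coding genes RNF144A and KIDINS220 were at -0.13 (adjusted p = 0.459) and 0.03 (adjusted p = 0.815). The called neighbour, the noncoding RNA GRASLND, had 18, 8 and 14 counts in controls and 0 in both overexpression libraries, the opposite direction to ID2. It overlaps RNF144A in the annotation, and since the use of strand in counting is not stated, their reads cannot be told apart. ID2-AS1, a noncoding RNA on chromosome 2 from 8670984 to 8681863 that ends just before ID2 without overlapping it, had 19, 12 and 23 counts in controls and 39 and 35 with overexpression. These groups did not overlap, but the difference missed the threshold (log2 0.86, adjusted p = 0.075).

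Around ID3 in DU145, 1 of 10 neighbours was called, TCEA3, an elongation factor, which fell by 0.66 on the log2 scale, and the median was 0.05. Around BMP4 0 of 10 neighbours were called in either line, where 8.94% of all tested genes were in DU145 and 5.38% in PC3, with medians of 0.18 in DU145, where 9 of 10 were higher, and -0.01 in PC3. Of the 10 around SMAD9 in PC3 1 was called, CCNA1, a germline and testis cyclin, which fell from 219, 176 and 221 counts to 76, 79 and 83 (log2 -1.36), and the median was -0.12.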

How the data were processed

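RNA was prepared with the TruSeq Stranded mRNA kit and read as single reads. In Galaxy the authors used Cutadapt for trimming, HISAT2 for mapping to hg38 and featureCounts for counting, and the deposited values are whole-number counts per Entrez gene, without normalization. The gene annotation and strand setting of the counting are not given in the sources used here. Of 28395 genes, 97.7% matched the RefSeq table (GRCh38.p14), which gave symbols, coordinates and promoters. Columns were assigned to samples by name.

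Counts were tested with edgeR 4.0.16 in R 4.3.3 (filterByExpr, TMM, robust quasi-likelihood test, Benjamini-Hochberg adjustment over all tested genes), in each line apart, and over all 11 libraries for the interaction and the contrast of controls. Calls needed an adjusted p under 0.05 and, except for the interaction, an absolute log2 fold change over 0.58. CPM are TMM-normalized within a line, and RPKM over both lines with canonical GENCODE transcript lengths. In simulated counts 100% of 100 genes changed by 1 on the log2 scale were recovered in each line, and 94% of 100 for the interaction. The changed genes were drawn from well-counted genes, with a fixed spread and no GC-linked difference between libraries. These rates therefore do not extend to scarce genes such as BMP4 and BMP3. No pair of replicates differed by less than sampling noise.

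The members, role lists and rules were chosen with earlier results of these data known. Named were all members, called genes of the role lists, the gene with the smallest adjusted p in lists with under 2 called genes, the 5 tested neighbours on each side of a called member, and the 5 genes most like ID2. CCAAT and TATAA were chosen after the promoters had been viewed. Alternatives were limma-voom (limma 3.58.1, the study's method), DESeq2 1.42.0, RLE factors, no filter, at least 10 counts in every library, the replicate number as a block, each library left out, a length and GC trend removed, and other thresholds. Marker lists of the lines that hold withheld items are not reported here.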

Additional observations from a re-analysis of the deposited data

Results flagged for a closer look

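Among the members, ST6GAL1 and the genes chosen from the role lists, 10 genes tested in both lines changed differently in DU145 and PC3 in the interaction test of edgeR over all 11 libraries. Most role-list genes were chosen because they were called in a line, so a difference between the lines was partly built in. The interaction passed for 19.7% of all 14952 tested genes, and for 18 of 62 tested genes of all pathway lists. The spread shared by both lines applies here too. Values are log2 fold changes of DU145 less those of PC3. ST6GAL1 itself was at 1.06 (adjusted p = 0.000286). ID2 was at 1.21 (adjusted p = 3.32e-08), BMP4 at -2.36 (adjusted p = 0.00338, on counts of 4 to 37) and SMAD9 at -0.64 (adjusted p = 0.0218). Of the other pathway genes, ENG was at 2.68 (adjusted p = 0.000104), GATA3 at 1.35 (adjusted p = 0.0332), CDKN1A at 1.14 (adjusted p = 3.36e-07), SKIL at 1.02 (adjusted p = 2.43e-07), RGMB at 0.49 (adjusted p = 0.00212) and CDH1 at -1.12 (adjusted p = 6.71e-08). ENG and GATA3 had 3 to 6 counts in DU145 controls, so the size of their difference is uncertain.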

How the results depend on the processing

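Of the member values under alternatives, 513 kept their direction and side of the threshold, 24 lost a call, 20 gained a call and 7 changed sign. The latter were SMAD1 in DU145 with the length and GC trend removed (-0.02, where that trend explained 9.25% of the variance of all genes), and interaction values near 0 with a library left out, over ranges of -0.04 to 0.08 for BMPR2, -0.13 to 0.05 for BMPR1A and -0.12 to 0.06 for SMAD6. On adjusted p alone 5056 genes passed in PC3 and 2747 in DU145, with 7 members in PC3 and with ID2, ID3, BMP4 and SMAD9 in DU145. At a log2 fold change over 1 it was 286 and 596 genes, with 1 member in PC3 and with ID2 and BMP4 in DU145. DESeq2 called 1 member in PC3, and limma-voom and DESeq2 each called 5 in the interaction, where the cause was not tested. The shares of all genes called by these tools are not given here, so these counts say nothing about the members as a set. A minimum of 10 counts left 1 called member in DU145, since BMP4 was no longer tested and ID3 had an adjusted p of 0.0508. With each library left out the counts were 670 to 798 genes in PC3, 830 to 2072 in DU145, 2287 to 5161 for the interaction and 9527 to 9930 between controls, and 1 to 2, 1 to 3, 2 to 5 and 5 to 7 members. The highest of the DU145 and interaction counts came without DU145 overexpression replicate 3. Replicate numbers did not pair the PC3 libraries, where deviations of same-numbered libraries correlated at 0.02, 0.10 and 0.03. DU145 shares only 2 numbers (0.19 and 0.51), and its control 1 correlated at 0.43 with overexpression 2. Deviations of only 2 overexpression libraries mirror each other, so whether numbers pair the DU145 libraries could not be decided. With the replicate block 740 genes were called in PC3, 1517 in DU145, 3551 for the interaction and 9690 between controls, with 2, 3, 4 and 6 members, the change being ID1 in the interaction (0.53, adjusted p = 0.0311). Depth limits BMP4, BMP3, ENG and GATA3, and leaves ID4 untested.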
